A study of Mus musculus with 4 samples.

Results

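The genes described here encode the CD3 subunits of the T-cell receptor complex (Cd3g, Cd3d, Cd3e and Cd247) and the CD4 and CD8 coreceptors (Cd4, Cd8b1 and Cd8a), 7 genes at 4 loci of the mouse genome. Binding of topoisomerase IIβ (TOP2B) at these loci was taken from ChIPseq peak lists of thymocytes, and a peak was counted if its centre lay inside one of the genes or within 50 kb of one. By this rule 27 of the 21318 peaks in both lists were included: 4 of the 3564 peaks of the Novus list and 23 of the 17754 peaks of the Santa Cruz list. The study took as its TOP2B peaks those called with both antibodies. By overlap that held here for 1 peak of each list. The rule itself uses no measured value, but the genes were chosen with earlier results of these data known.

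All libraries came from thymocytes of C57BL/6 mice of 4 to 6 weeks of age, described in the study as wild-type, with no transgene or treatment stated. Chromatin was precipitated in 4 libraries, and the peak lists of 2 of them are used here, one from a Novus Biologicals and one from a Santa Cruz antibody to TOP2B. The TOP2A and rabbit IgG libraries were not analysed here. Each antibody had 1 library, and the number of mice behind it was not given in the sources used here, so that no value below could be set against a spread between replicates. The lists give positions on build mm9 and hold 0 as the score of every row. A peak is therefore present or absent, with no height or p-value, and the read depth cannot be seen in the lists. Peaks carry no expression values, so that the labelled cell type could not be checked against its markers.

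As background, TOP2B passes one DNA duplex through a transient break in another and is found at promoters and other regulatory elements in many tissues. The CD3 γ and δ chains each pair with a CD3 ε chain and, with the ζ chains encoded by Cd247, carry the signalling motifs of the receptor. CD4 binds MHC class II, and CD8, formed by an α and a β chain, binds MHC class I. Most thymocytes carry both coreceptors, and each mature lineage keeps one of them. This choice is controlled in part by a silencer in intron 1 of Cd4 and by a group of enhancers around Cd8b1 and Cd8a.

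The sequences below show first the pair of peaks that overlapped between the antibodies. Then come some, not all, of the peaks inside or close to the genes. All sequences were read from the plus strand of mm9. Where a peak reached into an exon of its gene, the part outside the exon is printed. In the first pair, capitals mark the 98 bases at chr6:71257819-71257916 that the peaks of both antibodies share. They lie upstream of Cd8b1, in intron 1 of Smyd1, a gene for a muscle methyltransferase.

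Novus peak upstream of Cd8b1, chr6:71257722-71257916: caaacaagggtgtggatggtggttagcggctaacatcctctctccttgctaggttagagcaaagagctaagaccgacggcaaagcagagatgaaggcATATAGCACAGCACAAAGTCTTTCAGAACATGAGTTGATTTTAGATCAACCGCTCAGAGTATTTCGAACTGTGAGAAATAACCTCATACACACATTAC
Santa Cruz peak upstream of Cd8b1, chr6:71257819-71258005: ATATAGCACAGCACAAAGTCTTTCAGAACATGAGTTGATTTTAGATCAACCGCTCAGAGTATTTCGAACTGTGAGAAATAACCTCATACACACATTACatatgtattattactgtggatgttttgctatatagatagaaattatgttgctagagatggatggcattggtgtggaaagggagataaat

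In the next sequences capitals mark exact matches, on either strand, to short motifs of factors known in T-cell development: TGTGGT for RUNX, CAGCTG for an E-box and CTTTGA for TCF7 and LEF1. A match is one of letters, not a measured binding site.

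Cd3g start, part in intron 1, Santa Cruz, chr9:44788180-44788348: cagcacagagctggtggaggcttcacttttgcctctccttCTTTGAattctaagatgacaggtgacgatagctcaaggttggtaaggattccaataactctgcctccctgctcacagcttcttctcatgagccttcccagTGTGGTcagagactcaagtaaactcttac
Cd3e intron 2, Santa Cruz, chr9:44815776-44815962: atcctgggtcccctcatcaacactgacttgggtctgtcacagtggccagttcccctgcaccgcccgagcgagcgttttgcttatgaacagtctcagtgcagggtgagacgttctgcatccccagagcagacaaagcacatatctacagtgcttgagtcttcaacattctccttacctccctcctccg
Cd247 intron 1, nearest to the start, Santa Cruz, chr1:167720005-167720191: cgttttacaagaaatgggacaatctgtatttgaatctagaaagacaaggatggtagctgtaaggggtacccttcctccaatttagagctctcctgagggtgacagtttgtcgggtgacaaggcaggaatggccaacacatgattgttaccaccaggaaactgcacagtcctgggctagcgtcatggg
Cd247 intron 1, farthest from the start, Santa Cruz, chr1:167771160-167771346: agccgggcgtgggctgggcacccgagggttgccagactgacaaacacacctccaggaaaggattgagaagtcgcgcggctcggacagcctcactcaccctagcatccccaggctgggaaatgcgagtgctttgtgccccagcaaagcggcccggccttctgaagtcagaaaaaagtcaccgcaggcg
Cd4 intron 2, part outside the exon, Santa Cruz, chr6:124829493-124829593: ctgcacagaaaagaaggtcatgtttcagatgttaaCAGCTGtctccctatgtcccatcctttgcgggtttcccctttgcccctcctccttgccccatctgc
Cd8b1 intron 4, part outside the exon, Santa Cruz, chr6:71283930-71284083: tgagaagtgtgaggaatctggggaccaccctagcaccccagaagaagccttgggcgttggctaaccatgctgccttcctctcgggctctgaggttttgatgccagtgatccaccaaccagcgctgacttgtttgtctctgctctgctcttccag
Upstream of Cd8a, Santa Cruz, chr6:71319499-71319685: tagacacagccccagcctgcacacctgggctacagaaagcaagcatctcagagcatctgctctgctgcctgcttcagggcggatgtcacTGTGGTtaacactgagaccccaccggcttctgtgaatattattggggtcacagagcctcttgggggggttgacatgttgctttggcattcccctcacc
Between Cd8b1 and Cd8a, Novus, chr6:71301399-71301593: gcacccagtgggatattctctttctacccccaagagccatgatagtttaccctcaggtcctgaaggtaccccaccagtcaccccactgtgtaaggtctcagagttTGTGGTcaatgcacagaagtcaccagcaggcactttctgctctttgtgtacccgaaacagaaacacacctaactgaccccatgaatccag

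At the CD3 locus on chromosome 9, 6 Santa Cruz peaks and 1 Novus peak were found. The one closest to a start lay in Cd3g, which encodes the γ chain (chr9:44777655-44788514, minus strand). Its centre was 241 bp downstream of the Cd3g start, in intron 1 of 6, and 18 bp of the peak reached into coding exon. The sequence printed above holds a TCF7/LEF1 match and a RUNX match, each centred 50 bp from the peak centre and on opposite sides of it. Cd3d, the δ chain gene, is transcribed away from Cd3g on the plus strand (chr9:44789876-44795135) and had no peak of either list inside it. The Cd3g peak was also the nearest to Cd3d, 1603 bp upstream of its start.

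Cd3e, which encodes the ε chain (chr9:44806826-44817673, minus strand), held 2 Santa Cruz peaks. One was centred 1.80 kb downstream of the Cd3e start, in intron 2 of 7. The other, at chr9:44807823-44808009, was in intron 7, 9.76 kb downstream of the start. A further Santa Cruz peak at chr9:44823033-44823219 was intergenic, 5.45 kb upstream of Cd3e. No peak of either list was centred between Cd3d and the 3′ end of Cd3e.

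The remaining 2 Santa Cruz peaks of the CD3 window lay beyond the 3′ end of Cd3g, at and in Ube4a, a gene of the ubiquitin pathway. One at chr9:44775027-44775213 was intergenic, 1.44 kb from the Ube4a start, and held a match to the core motif of CTCF, a factor bound at insulators, with 1 mismatch. The other, at chr9:44762761-44762947, was in intron 3 of Ube4a. The Novus peak stood at the opposite end of the window (chr9:44855564-44855758), in intron 4 of Mpzl2, an adhesion molecule gene. It was 38.0 kb upstream of Cd3e and 32.5 kb from the nearest Santa Cruz peak. In this Novus peak 3.05% of the 32-base stretches occurred, letter for letter, more than once in the genome, in up to 3 copies. In the other peaks of the 4 loci none did. Over the whole lists, 91.3% of Novus and 86.3% of Santa Cruz peaks held no repeated stretch. Another Novus peak, 3.22 kb beyond the left edge of the CD3 window and 64.1 kb downstream of the Cd3g start, was not counted.

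**Figure D1:**
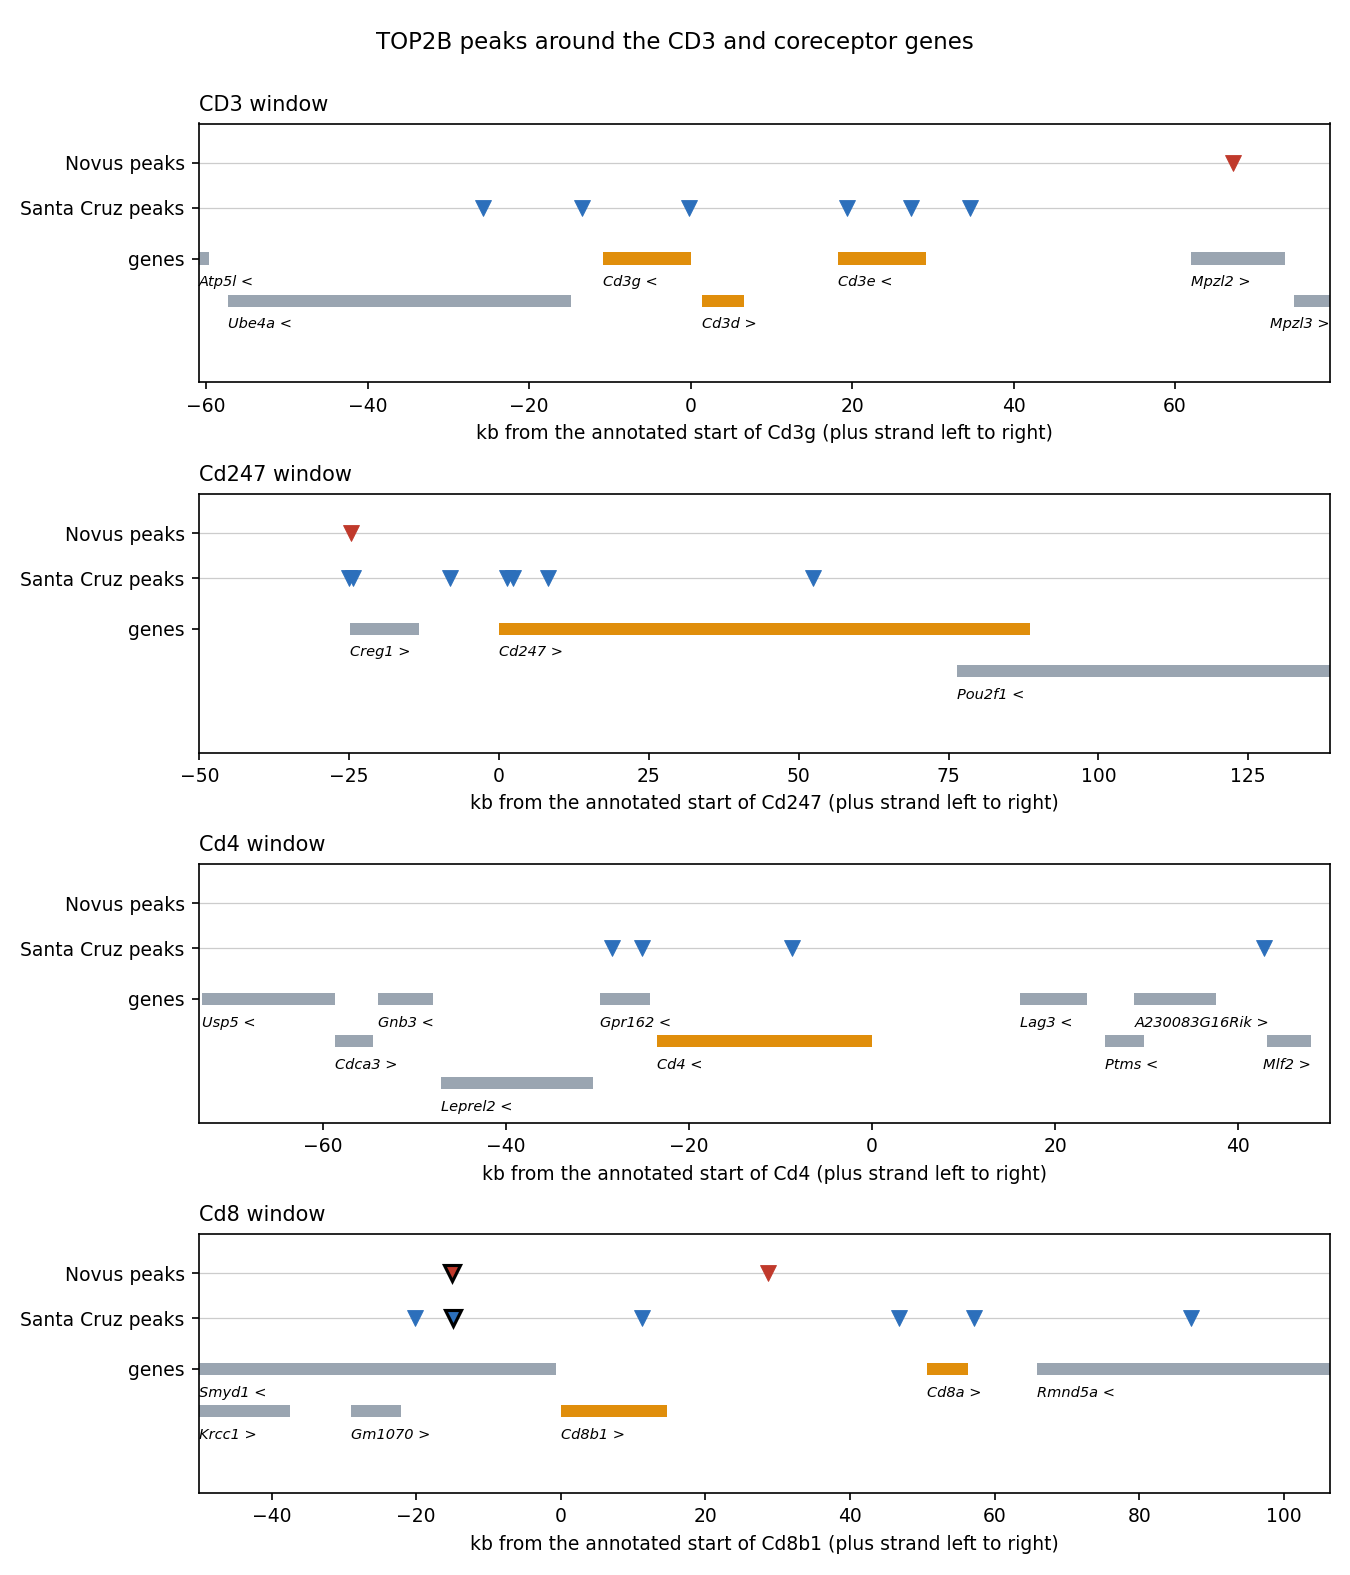
Positions of TOP2B peak centres of the Novus list (red) and the Santa Cruz list (blue) in the windows of the CD3, Cd247, Cd4 and Cd8 loci, in kb from the annotated start of the gene named under each panel. Orange bars are the CD3 and coreceptor genes and grey bars the other protein-coding genes, arrows give their strand, and black outlines mark the pair of peaks that overlap. Santa Cruz peaks lie inside 5 of the 7 genes, and all 4 Novus peaks lie outside them.

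At Cd247, the ζ chain gene (chr1:167718812-167807407, plus strand), 7 Santa Cruz peaks and 1 Novus peak were found. Cd247 is 88596 bp long, and each of the 4 Santa Cruz peaks inside it was in intron 1 of 7. Their centres lay 1202 bp, 2.28 kb, 8.02 kb and 52.4 kb downstream of the nearest of its annotated starts, which are 4 in number and lie within 84 bp of each other. The first pair was 1077 bp apart, whereas 44.3 kb separated the third from the fourth. The fourth peak had a GC content of 62.0% and 12 CpG dinucleotides. The other 3 had between 40.1% and 48.1% GC and between 0 and 5 CpG. Another Santa Cruz peak, at chr1:167710532-167710718, was intergenic, 8.19 kb upstream of the nearest Cd247 start, and held CCGGAA, the core of ETS sites, on the minus strand.

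The last 2 Santa Cruz peaks and the Novus peak of the Cd247 window formed a group at the start of the upstream gene Creg1, which encodes a glycoprotein. The Santa Cruz peaks at chr1:167693625-167693811 and chr1:167694400-167694586 were centred 159 and 616 bp from the Creg1 start, upstream of it and in intron 1. The Novus peak at chr1:167694097-167694291 lay between them, 317 bp from the start, with its centre in the coding part of exon 1. Its centre was 476 and 299 bp from theirs, and it shared no base with either. These peaks were 24.3 to 25.1 kb upstream of Cd247 and are counted here for that distance alone. Just outside the window, 2.38 kb beyond its left edge and 52.4 kb upstream of Cd247, was a Novus peak that a Santa Cruz peak overlapped.

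At Cd4, which encodes the coreceptor for MHC class II (chr6:124814710-124838239, minus strand), 4 Santa Cruz peaks and 0 Novus peaks were found. The nearest Novus peak was 120 kb from a Cd4 start, and it was a common one. A single Santa Cruz peak was inside Cd4, at chr6:124829407-124829593. It was centred in intron 2 of 9 of the longest transcript, 8.74 kb downstream of the outer start. A second annotated start of Cd4, 8528 bp inside the outer one, was 211 bp from the centre, and the closeness of this peak to a start rests on that transcript. No peak of either list was centred in intron 1 of the longest Cd4 transcript. The part of the peak outside the exon holds a CAGCTG match, 31 bp from the peak centre. E-boxes of this kind are bound by E proteins, which act at several genes of developing T cells.

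The other Santa Cruz peaks of the Cd4 window lay at starts or in exons of neighbours. On the 3′ side of Cd4, 2 of them were in Gpr162, which encodes an orphan receptor. One was centred in intron 1, 658 bp from the nearest annotated start, which is not the outermost one (chr6:124812979-124813165). Another was in the untranslated part of exon 3 (chr6:124809736-124809922). The fourth, at chr6:124880967-124881153, was 346 bp from the start of Mlf2 and 42.8 kb upstream of the outer Cd4 start, and had the highest GC content of the 27 peaks, 67.9%. A Santa Cruz peak 5.15 kb beyond the left edge of the window was not counted.

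At the Cd8 locus on chromosome 6, which holds the genes of the β chain (Cd8b1, chr6:71272830-71287471) and the α chain (Cd8a, chr6:71323421-71329165), both on the plus strand, 6 Santa Cruz and 2 Novus peaks were found. Of these a single Santa Cruz peak was inside a coreceptor gene, in intron 4 of 5 of Cd8b1, 11.2 kb downstream of its start, with 33 bp in coding exon. Cd8a held none. A Santa Cruz peak 3.83 kb upstream of the Cd8a start had a TGTGGT match 1 bp from its centre, the word bound by RUNX proteins, which act at both coreceptor loci. A further Santa Cruz peak, at chr6:71329934-71330120, lay beyond the 3′ end of Cd8a, 6.61 kb from its start.

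Between Cd8b1 and Cd8a, 21.9 kb upstream of the Cd8a start, the Novus list had an intergenic peak with a TGTGGT match 11 bp from its centre. The nearest Santa Cruz peaks were the one in Cd8b1, at 17.5 kb, and the one upstream of Cd8a, at 18.1 kb, so that the antibodies' lists had no common peak in the interval between the coreceptor genes. The common pair was on the other side of Cd8b1. The Novus peak was 15.0 kb and the Santa Cruz peak 14.9 kb upstream of the Cd8b1 start, with centres 93 bp apart. Its Santa Cruz member had the lowest GC content of the 27 peaks, 34.8%, and that of the Novus peak was 44.1%. Intron 1 of Smyd1 held another Santa Cruz peak, at chr6:71252505-71252691, with a CTCF core match of 1 mismatch. The last one, at chr6:71359834-71360020, was in intron 4 of Rmnd5a, 36.5 kb downstream of the Cd8a start.

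The number of peaks in each window was then compared with the number found when the whole list was slid along its chromosome, over every circular shift in steps of 1 kb. This keeps the clustering of the peaks but not their relation to genes, and the shares are given as descriptions of 1 list each, with no p-value. A shift is said to have as many peaks if it had that number or more. For the Santa Cruz list, the CD3 window held 6 peaks against a mean of 1.19 over 124077 shifts, and 1.91% of the shifts had as many. For shifts of up to 5 Mb, which stay in the region, the share was 4.42%. At Cd247, 7 peaks stood against a mean of 1.16 and 1.15% of 197196 shifts had as many, or 2.35% of the shifts of up to 5 Mb. The Cd8 window had 6 peaks against a mean of 1.07, with 2.0% of 149518 shifts and 6.55% of those of up to 5 Mb having as many. The Cd4 window had 4 peaks against a mean of 0.843, with shares of 4.85% and 9.13%. All 4 windows thus held more Santa Cruz peaks than the mean of their shifts, and in each the share was larger among the shorter shifts.

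For the Novus list the counts were small. In the Cd8 window 2 peaks stood against a mean of 0.201, and 3.59% of shifts had as many (5.94% of those of up to 5 Mb). The single peaks at CD3 and Cd247 were matched by 17.1% and 16.6% of shifts, or 23.8% and 28.8% of those of up to 5 Mb. At Cd4, 86.8% of the shifts had no Novus peak, as was observed. In these 608 kb the Santa Cruz list had 3.78 peaks per 100 kb, against 0.673 over the genome, and the Novus list 0.657 against 0.135. Santa Cruz peaks were 5.75 times as many as Novus peaks in the windows and 4.98 times as many over the whole lists, so that the proportion between the lists was close to that of the genome.

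**Figure D2:**
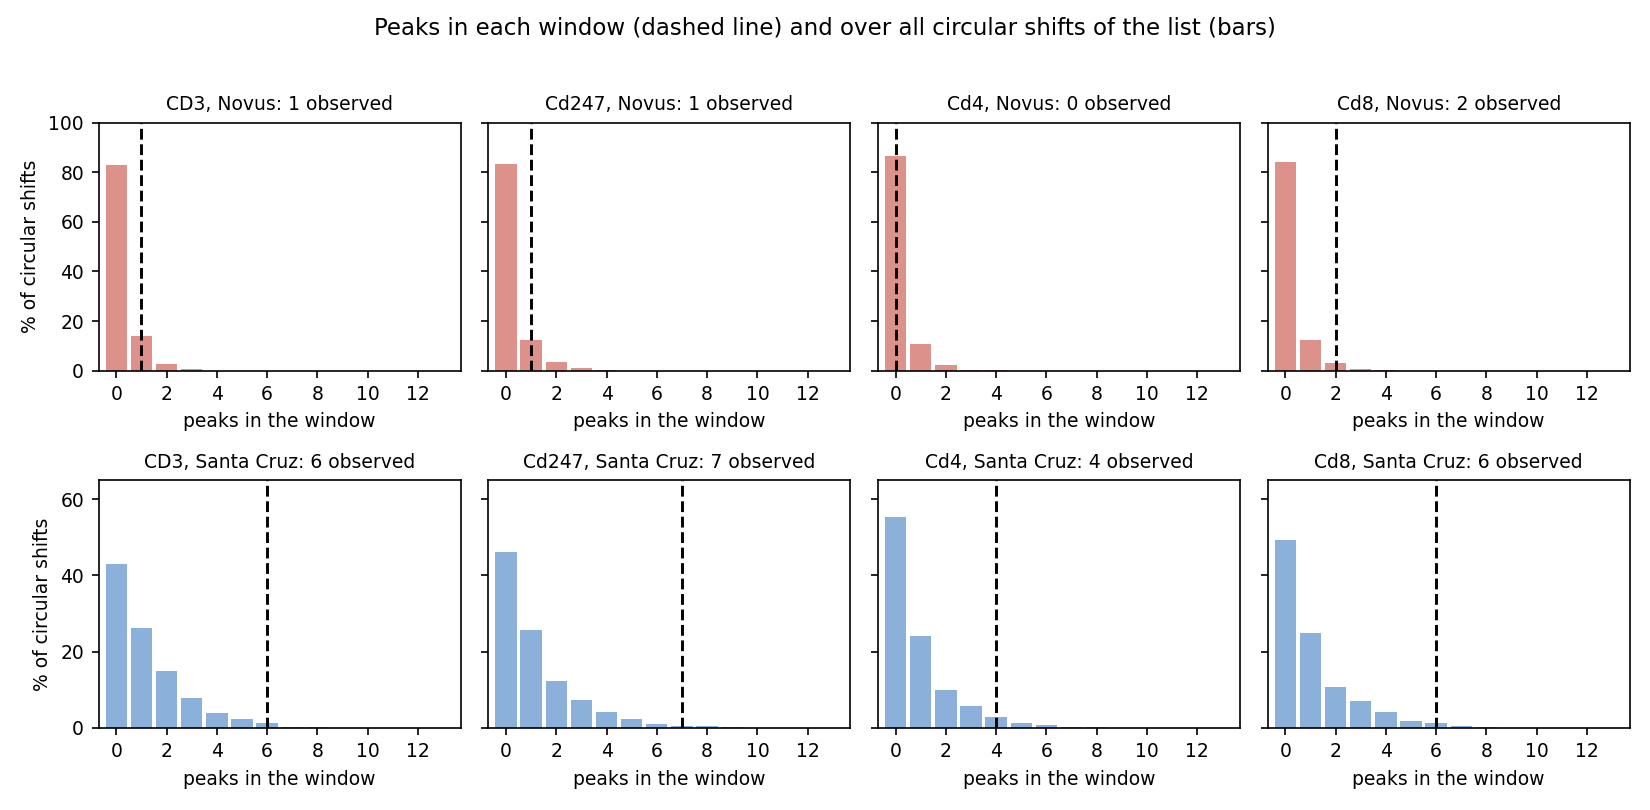
Number of TOP2B peaks in each window (dashed line) and over all circular shifts of the list along the chromosome (bars, as % of shifts), for the Novus list in the upper row and the Santa Cruz list in the lower row. Santa Cruz counts of 4 to 7 lie towards the right end of the bars in all 4 windows, and the Novus counts of 0 to 2 lie at or near the bulk of them except at Cd8.

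The genes were also compared with all 22342 protein-coding genes, which gives the background of each count. A Santa Cruz peak was inside or within 50 kb of 7 of the 7 genes, as for 67.6% of all protein-coding genes, and inside 5 of them, as for 25.5%. The 5 were Cd3g, Cd3e, Cd247, Cd4 and Cd8b1, and the 2 without were Cd3d and Cd8a, the shortest of the 7 at 5260 and 5745 bp. Within 1 kb of a start the Santa Cruz list had a peak at 2 of the 7 genes, against 12.1% of all genes. These were Cd3g and, from its inner start, Cd4. A Novus peak was within 50 kb of 4 of the 7 (Cd3e, Cd247, Cd8b1 and Cd8a), against 27.6%, but inside 0 of the 7, against 7.67%, and within 1 kb of a start of 0 of the 7, against 5.11%. With 7 genes the last shares correspond to less than 1 gene, so that the zeros are close to the background. A common peak was within 50 kb of 1 of the 7, Cd8b1, against 9.25%, and inside or within 1 kb of the start of none, against 2.17% and 1.27%. Genes of 1 locus share peaks and do not count as separate observations.

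By distance, the Santa Cruz peak nearest to a start was closest at Cd4 (0.211 kb, from the inner start) and Cd3g (0.241 kb), followed by Cd247 (1202 bp), Cd3d (1603 bp) and Cd3e (1.80 kb), and then by Cd8a (3.83 kb) and Cd8b1 (11.2 kb). The median over all protein-coding genes was 30.6 kb, and between 5.98% (Cd4) and 29.9% (Cd8b1) of them had a Santa Cruz peak as close. The CD3 genes were thus nearer to a Santa Cruz peak than both Cd8 genes. For Cd4 this held from its inner start only. From the outer Cd4 start the distance was 8.74 kb, farther than at Cd8a. In the Novus list Cd4 was farther from a peak than both Cd8 genes. The distance was 15.0 kb at Cd8b1, 21.9 kb at Cd8a and 24.6 kb at Cd247, and the farthest was Cd4 at 120 kb, where 41.7% of genes had a peak as close. Cd3e (38.0 kb), Cd3g (64.1 kb) and Cd3d (65.4 kb) came between, and the median over all genes was 167 kb. Common peaks were within 100 kb of Cd8b1 (15.0 kb), Cd247 (52.4 kb) and Cd8a (65.6 kb), and Cd4 had one at 120 kb. The 3 genes of the CD3 locus were 379 to 408 kb from one, and the median over all genes was 679 kb.

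**Figure D3:**
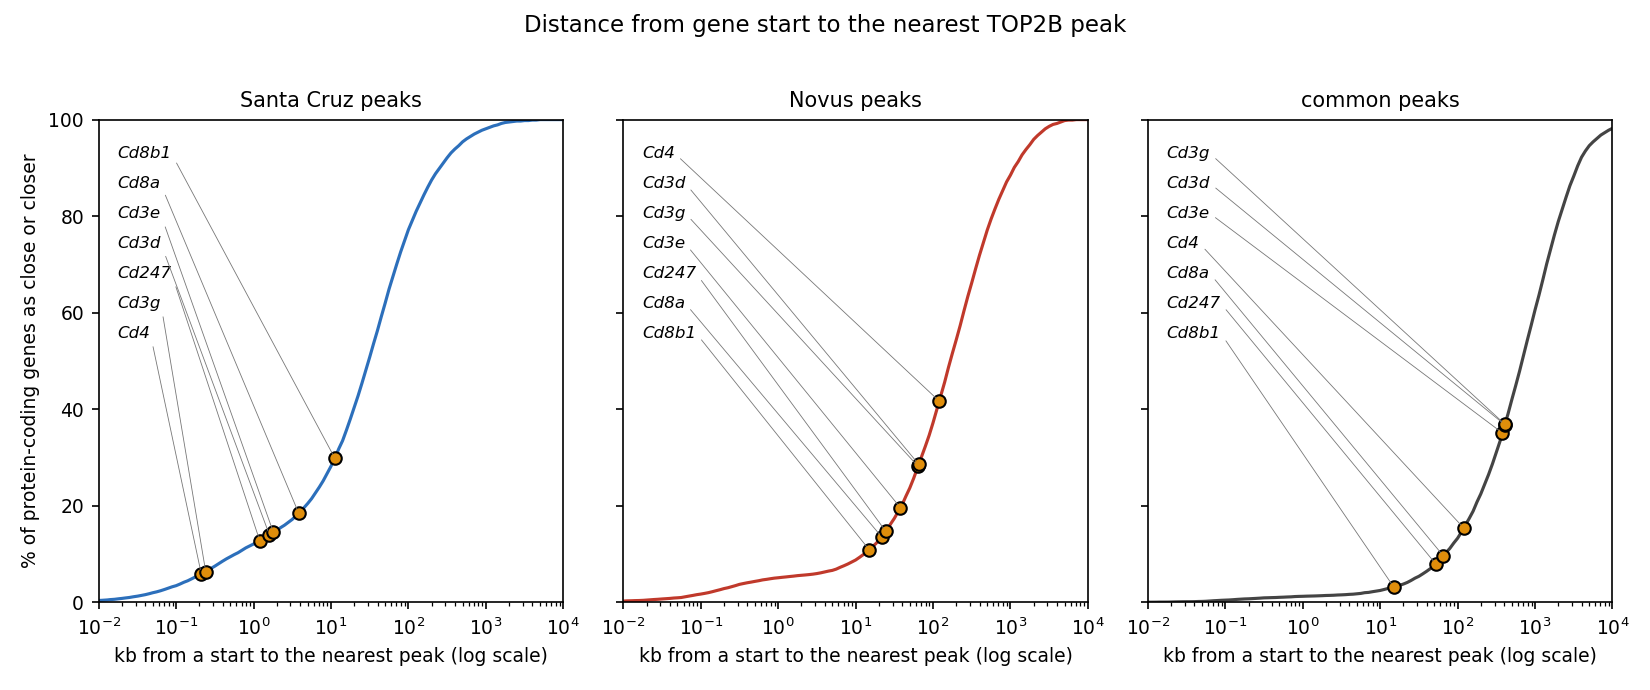
Share of protein-coding genes (y axis, %) whose nearest TOP2B peak lies at or within a given distance of a start (x axis, kb, log scale), for Santa Cruz, Novus and common peaks, with the CD3 and coreceptor genes as orange points. Cd4, from its inner start, and Cd3g lie lowest on the Santa Cruz curve, at 5.98% and 6.40%. Cd8b1 lies lowest on the Novus and common curves, at 10.9% and 3.16%.

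Allowing for gene length, the windows of the CD3 genes were among the densest in Santa Cruz peaks. The values were 5.70 peaks per 100 kb at Cd3d and 5.41 at Cd3g and Cd3e, where between 0.707% and 0.935% of protein-coding genes were as dense, and these 3 windows hold the same 6 peaks. Cd8b1 had 4.36 per 100 kb, Cd8a 3.78, Cd247 3.71 and Cd4 3.24, where 2.93% to 8.09% of genes were as dense, and the median over all genes was 0.906. In Novus peaks Cd8b1 was the densest of the 7, at 1.74 per 100 kb, and 2.60% of all genes reached that value.

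Among the 23 Santa Cruz peaks of the windows, 6 were near a start of any protein-coding gene, 1 was in another exon, 11 were in introns and 5 were intergenic. In the whole Santa Cruz list 15.2% were near a start, 3.23% in exons, 38.9% in introns and 42.7% intergenic. Of the 6 near a start, the starts were those of Cd3g, Cd4, Gpr162, Mlf2 and, for a pair, Creg1. In the Novus list 1 of the 4 was near a start, that of Creg1, where 29.7% were over the whole list, 2 were in introns (30.2%) and 1 was intergenic (37.0%).

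Overlap between the antibodies was 1 of 4 Novus peaks and 1 of 23 Santa Cruz peaks, and over the whole lists 27.9% of Novus and 5.65% of Santa Cruz peaks. Counted by centres within 1 kb of each other, 2 Novus and 3 Santa Cruz peaks of the windows were common, because the group at the Creg1 start was then included. Inside the 7 genes lay 0 Novus and 9 Santa Cruz peaks, and none was common under either count. By overlap, the list share of 5.65% corresponds to less than 1 of these 9.

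The median GC content was 48.7% for the 23 Santa Cruz peaks and 51.5% for the 4 Novus peaks, against 48.1% and 51.8% over the whole lists. Motif matches were searched on both strands, and none overlapped another. Of the 23 Santa Cruz peaks, 2 held the CTCF core (9.07% of the whole list), 2 held TGTGGT (15.5%), 2 held CAGCTG (11.4%), 2 held CTTTGA (12.9%), 3 held the GATA word AGATAA (8.79%) and 1 held CCGGAA (4.15%). Of the 4 Novus peaks, 1 held TGTGGT (16.2%) and none held the others. With so few peaks no difference from the shares of the lists could be shown.

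The same counts were made for 20 other surface genes of developing T cells, listed with earlier results of these data known. A Santa Cruz peak was inside or within 50 kb of 19 of the 20, Cd48 being the one without, and inside 9. A Novus peak was within 50 kb of 10 and inside 5. Within 1 kb of a start the Santa Cruz list had a peak at 4 and the Novus list at 1 of them. The shares over all protein-coding genes are those given above, and the CD3 and coreceptor genes and this list stood on the same side of them for Santa Cruz peaks inside or within 50 kb. Common peaks were within 50 kb of 6 of the 20, against 9.25% of all protein-coding genes. The 6 were Cd2, Cd28, Cd96, Ptprc, Il2ra and Icos. Of these Cd28, the costimulatory receptor, Ptprc, the CD45 phosphatase, and Il2ra, the α chain of the interleukin 2 receptor, held one inside the gene, and Icos, another costimulatory receptor, had one 0.190 kb from a start. None of the 7 CD3 and coreceptor genes did either, against 2.17% and 1.27% of all protein-coding genes. With 7 genes these shares correspond to less than 1 gene, so that the zeros are close to the background. Lag3, an inhibitory receptor related to CD4, lies beside Cd4 and shared its 4 Santa Cruz peaks. Cd5 and Cd6, and Cd28, Ctla4 and Icos, are likewise neighbours, so that the 20 genes are fewer than 20 independent loci.

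**Figure D4:**
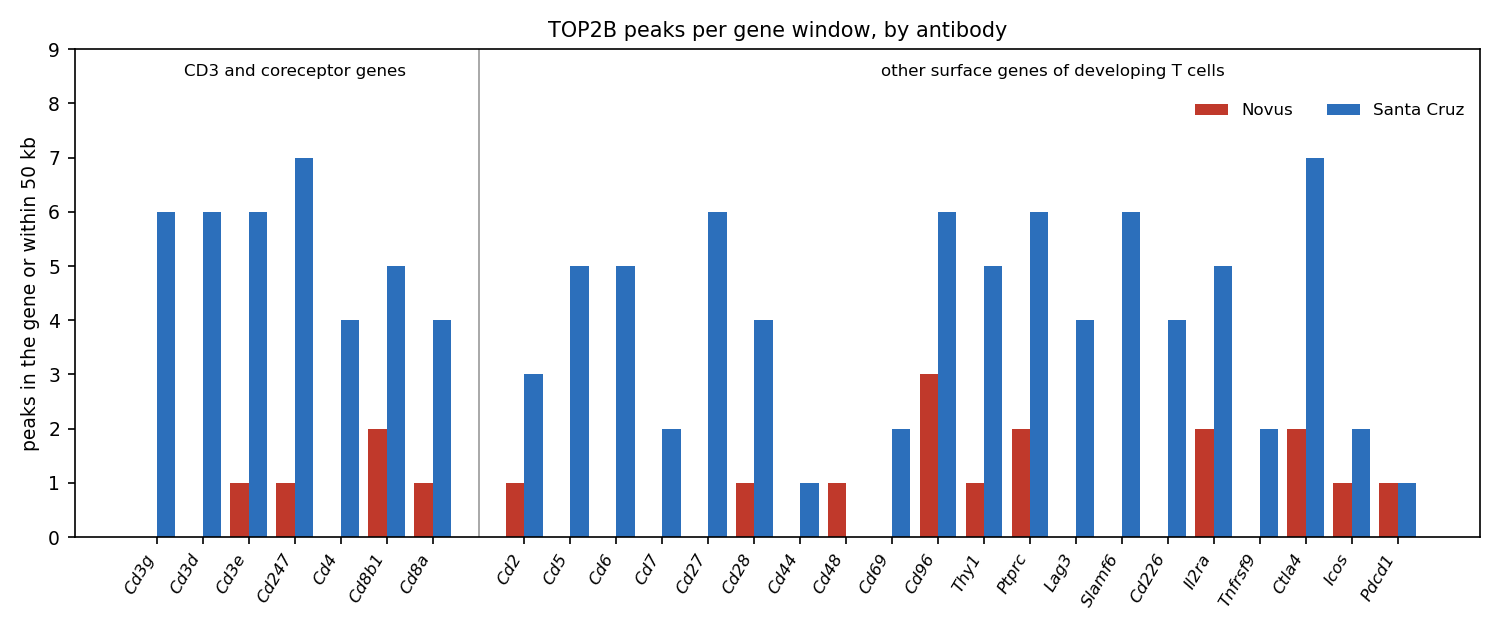
Number of TOP2B peaks inside or within 50 kb of each gene (y axis) for the Novus list (red) and the Santa Cruz list (blue), with the CD3 and coreceptor genes to the left of the line and 20 other surface genes of developing T cells to the right. The CD3 and coreceptor genes have 4 to 7 Santa Cruz peaks and 0 to 2 Novus peaks each, and the other genes 0 to 7 and 0 to 3.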

How the data were processed

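TOP2B peak lists of thymocytes were used, 1 per antibody. Per the labels and the study's methods, the authors prepared libraries by ChIPmentation, used Bowtie 1.2.0 for alignment to mm9, and ran HOMER in its factor style with a filter of 10-fold enrichment over the IgG library. Calls were made per library, without pooling. In both deposited lists the score column holds 0 throughout, so that positions are the measurement used here. The lists give no depth or height per peak, no test was made, and a locus with no peak may hold binding below the threshold. The Santa Cruz list held 1 repeated row, which was kept as deposited.

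Peak centres were placed on GENCODE M1, an annotation on mm9. Near a start was within 1 kb of any protein-coding transcript's first base. Other centres were counted as exon, or else as intron, if any protein-coding transcript placed them there. Exon and intron numbers are those of the gene's longest protein-coding transcript at the centre. Common peaks shared at least 1 bp. Circular shifts in steps of 1 kb were all enumerated. Shares with as many, as dense or as close include those with more, denser or closer. The CTCF core, 12 letters long, was searched with at most 1 mismatch and the other motifs exactly. Repeats were checked as exact copies of stretches of 32 bases, so that diverged repeats would not be seen. The members, gene lists and alternatives were chosen with earlier results of these data known. By the rule for named genes, the 7 genes, every peak of their windows and the genes at those peaks were named. Counting, shifting and motif search were tested on simulated data. The tools were samtools 1.23.1 and Python 3.11.15 with matplotlib 3.10.9, pyfaidx 0.9.0.4, numpy 2.4.6 and scipy 1.17.1.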

Additional observations from a re-analysis of the deposited data

How the results depend on the processing

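With 1 library per antibody, leaving out a replicate was not possible, and no fit was made. No paired analysis was possible because each antibody had 1 library and no result came from a test. A stricter list could not be run, since every score is 0. A count was taken as moved beyond 1.5 times, and a share outside the exact (Clopper-Pearson) 95% interval of its reported value, over the whole windows that a chromosome can hold for shifts and over all protein-coding genes for gene shares. By these limits 39 values moved and 37 did not. Counting any base in the window in place of the centre, or windows over sequenced bases, moved none.

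With windows of 25 kb the CD3 locus had 0 Novus peaks. With windows of 100 kb, the Novus counts were 2 at CD3 and 2 at Cd247, and the Santa Cruz count at Cd4 was 7. Inside the genes alone, the Novus counts were 0 at CD3, 0 at Cd247 and 0 at Cd8, and the Santa Cruz counts 3 at CD3, 4 at Cd247, 1 at Cd4 and 1 at Cd8. The share of protein-coding genes with a peak was 19.3% (Novus), 55.1% (Santa Cruz) and 6.23% (common) for 25 kb, and 40.1%, 79.6% and 14.8% for 100 kb.

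Extending both lists by 1 kb, or taking centres within 1 kb, gave 2 common Novus and 3 common Santa Cruz peaks. Requiring 50% of both peaks left 1 of each. Within 2.5 kb of a start were 11 Santa Cruz peaks. With shifts of up to 5 Mb, the shares with as many Novus peaks were 23.8% (CD3), 28.8% (Cd247) and 5.94% (Cd8), and with as many Santa Cruz peaks 4.42% (CD3), 2.35% (Cd247), 9.13% (Cd4) and 6.55% (Cd8). Searched within 250 bp of the centre, the Novus peaks with a match were 1 for the CTCF core, 3 for RUNX, 2 for GATA and 1 for the E-box. The Santa Cruz peaks with one were 5 for the CTCF core, 4 for RUNX, 8 for GATA, 4 for the E-box, 3 for ETS and 5 for TCF7/LEF1. The lists' own shares rose as well, to between 15.6% and 34.5% for Novus and between 9.66% and 34.8% for Santa Cruz.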

Other observations

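Peaks were also counted over 500 kb on either side of the members, with the peaks of the windows included. There the Santa Cruz list had 29 peaks at CD3, 19 at Cd247, 25 at Cd4 and 21 at Cd8, and the Novus list 4, 4, 2 and 7. The common peaks among them were 1 at CD3, 2 at Cd247, 1 at Cd4 and 3 at Cd8. The Cd8 locus thus had the most Novus and the most common peaks of the 4 loci, and CD3 the most Santa Cruz peaks. For Cd8 this is not separate from the result in the windows, because the common pair described above is among its 3 common peaks. In the windows Cd247, with 7 Santa Cruz peaks, came before CD3, with 6. The counts over 500 kb were neither tested nor compared with the rest of the genome.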
